A study of Drosophila melanogaster with 9 samples.

Results

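The small heat shock protein genes described here are Hsp22, Hsp23, Hsp26, Hsp27, Hsp67Ba, Hsp67Bc and l(2)efl, 7 of the 17199 genes in the authors' deposited table, found there by gene symbol. RNA of fly ovaries was sequenced in 9 libraries, 3 for each of 3 Drosophila melanogaster lines. In the M6stop line a genome-edited frameshift, placed where Pcif1 encodes its nuclear localization signal, leads to an early stop codon. In the F9ΔNLS line that signal was removed in frame, and a protein of 829 amino acids is left. Both alleles were made in the w1118 background with CRISPR-Cas9 and then crossed to the third line, BG02557, for up to 10 generations. BG02557 is the control and has a P-element within Pcif1, in the gene's opening intron, so it is not an unmodified wild type. Per the labels' protocols 3 pairs of ovaries were taken from each line, and the sources used here give no age for the flies. The comparison asks how the RNA of these chaperone genes differs between each mutant line and the control line.

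Small heat shock proteins share an alpha-crystallin domain and assemble into large oligomers. They bind proteins that are starting to unfold, without using ATP, and hold them until chaperones of the Hsp70 system can refold them. In flies most of the genes sit together at the cytological position 67B, where heat shock factor induces them on heat. They are also switched on without heat during development, by ecdysone among other signals, and Hsp26 and Hsp27 RNA is known from the nurse cells of the ovary, which pass RNA to the oocyte.

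In F9ΔNLS ovaries 4 of the 7 genes fell and 0 rose, and in M6stop ovaries 1 rose and 0 fell. The 4 that fell, Hsp22, Hsp23, Hsp26 and Hsp27, all lie in the 67B block, and the single rise was that of l(2)efl, on another chromosome. The median log2 fold change of the 7 genes in the authors' deposited table was -0.61 in F9ΔNLS and -0.02 in M6stop, beside 0.004 and -7.0e-04 for all tested genes. Rises and falls are those with a DESeq2 adjusted p under 0.05, as computed by the authors. All 7 genes had an adjusted p, as did 10662 genes in all. By this threshold 11.9% of all tested genes fell and 11.6% rose in F9ΔNLS, while 2.04% fell and 3.48% rose in M6stop. At an adjusted p under 0.01, which 6.93% of tested genes passed downward in F9ΔNLS and 1.93% upward in M6stop, Hsp22 and l(2)efl no longer passed. The 4 falls and the rise of l(2)efl also passed at an adjusted p under 0.1, where 15.2% of tested genes fell in F9ΔNLS and 4.49% rose in M6stop. They passed as well with a log2 change of at least 0.5, where 3.47% fell in F9ΔNLS and 2.18% rose in M6stop, and all 5 have a mean of 50 or more normalized counts, a level at which 14.8% fell in F9ΔNLS and 3.71% rose in M6stop. Both comparisons use the same BG02557 libraries.

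The authors' deposited table gives a mean normalized count over all libraries, a log2 fold change and an adjusted p for each gene. No value of a single library could be tied to a line, so no spread between replicates is shown, and a fold change has no interval. The fold changes appear to be shrunk toward 0: among tested genes with a mean under 20 normalized counts, the median absolute log2 change in the authors' deposited table was 0.04 in F9ΔNLS and 0.01 in M6stop. Values near 0 therefore do not show that a gene stayed level. In whole ovaries, fewer cells of a type and less RNA per cell cannot be told apart. The edited gene, listed as CG11399 (Pcif1), fell by 2.51 in M6stop, where its adjusted p by DESeq2 is listed as 0, and its log2 fold change was 0.02 in F9ΔNLS (adjusted p = 0.830, DESeq2), in the authors' deposited table. It lies on the same chromosome arm as the block, 11.4 Mb away.

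**Figure D1:**
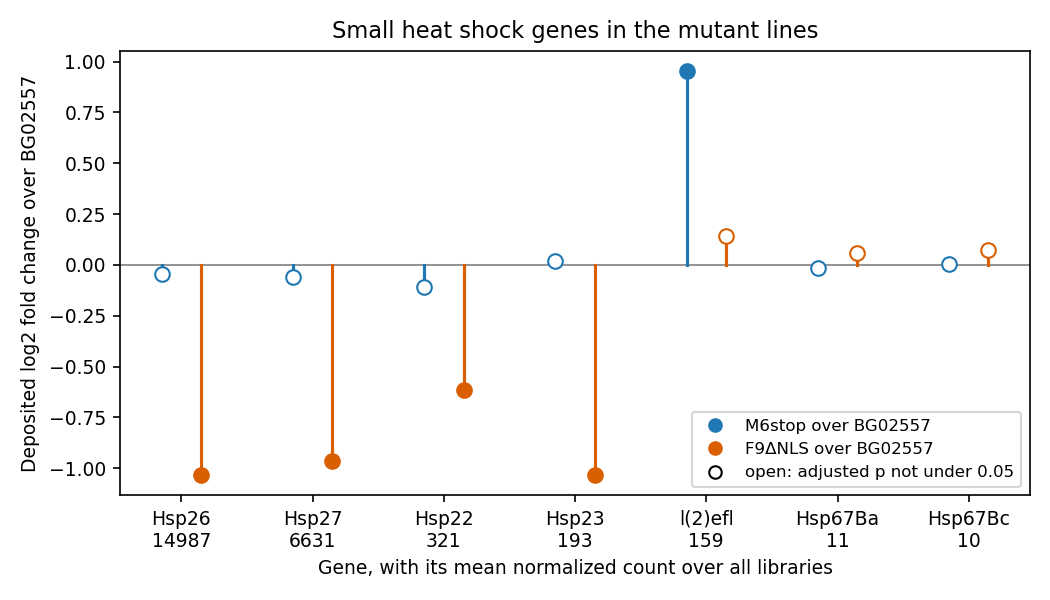
Deposited log2 fold change (vertical axis) of the 7 small heat shock genes in M6stop (blue) and F9ΔNLS (orange) over BG02557, ordered by mean normalized count. Filled points had an adjusted p under 0.05: Hsp26, Hsp27, Hsp22 and Hsp23 lie between -1.03 and -0.61 in F9ΔNLS, and l(2)efl lies at 0.95 in M6stop.

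The levels of the genes differed widely. Per kilobase of annotated exon, Hsp26 had a mean of 14838 normalized counts over all libraries in the authors' deposited table, and Hsp27 followed with 4063. These levels were above those of 98.6% and 97.0% of tested genes. Hsp23 (219 per kilobase), l(2)efl (215) and Hsp22 (169) formed a middle group in the authors' deposited table, below the tested median of 303. Hsp67Bc (10.1 per kilobase) and Hsp67Ba (6.48) were the lowest in the authors' deposited table. Without library values, the order within the middle group and within the low pair cannot be set against a spread. Of the summed mean normalized counts of the 7 genes, 67.2% came from Hsp26 and 96.9% from Hsp26 and Hsp27 together.

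Hsp26 encodes a cytosolic small heat shock protein of 208 amino acids and was the most abundant of the 7 RNAs. The gene (FBgn0001225) has a single exon on chromosome arm 3L (BDGP6), from 9376418 to 9377427 and on the minus strand. In F9ΔNLS ovaries it fell by 1.03 on the log2 scale (adjusted p = 1.57e-06, DESeq2) in the authors' deposited table, which is 48.9% of the BG02557 level. Its log2 fold change in M6stop was -0.05 (adjusted p = 0.723, DESeq2) in the authors' deposited table. In F9ΔNLS 104 called falls, Hsp26 included, were as large as this or larger, of 1264.

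Hsp27, which encodes a nuclear member of the family of 213 amino acids, had nearly the same values. The gene (FBgn0001226) is a single exon on 3L from 9384063 to 9385694 on the plus strand. It fell by 0.97 in F9ΔNLS (adjusted p = 3.03e-05, DESeq2), to 51.2% of the BG02557 level, in the authors' deposited table. Its value in M6stop was -0.06 (adjusted p = 0.650, DESeq2) in the authors' deposited table. The pseudogene CR43483 overlaps its end on the other strand and is listed at 0.

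Hsp23 encodes a cytosolic protein of 186 amino acids and lies between the other genes of the block, on 3L from 9381882 to 9382765 on the plus strand (FBgn0001224). Its mean was 193 normalized counts, far below that of Hsp26, yet its fall in F9ΔNLS was of the same size. In the authors' deposited table it fell by 1.03 (adjusted p = 2.04e-04, DESeq2), to 48.8% of the BG02557 level. Its log2 fold change in M6stop was 0.02 (adjusted p = 0.891, DESeq2) in the authors' deposited table.

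Hsp22 encodes the mitochondrial member, of 174 amino acids, and had the smallest of the 4 falls. In the authors' deposited table its mean was 321 normalized counts, and it fell by 0.61 in F9ΔNLS (adjusted p = 0.0112, DESeq2), to 65.3% of the BG02557 level. The M6stop value was -0.11 (adjusted p = 0.335, DESeq2) in the authors' deposited table. Hsp22 (FBgn0001223, 3L from 9372931 to 9374964, plus strand) lies wholly inside the span of CG4456 on the same strand, so reads may have been divided wrongly between the pair. CG4456 itself, at a mean of 33.2 normalized counts, had log2 fold changes of 0.09 in F9ΔNLS (adjusted p = 0.408, DESeq2) and -0.002 in M6stop (adjusted p = 0.978, DESeq2) in the authors' deposited table.

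The other two genes of the block were scarce and passed in neither line. Hsp67Bc, whose protein takes part in autophagy of misfolded proteins in flies, had a mean of 9.93 normalized counts in the authors' deposited table. Its log2 fold changes were 0.07 in F9ΔNLS (adjusted p = 0.541, DESeq2) and 0.004 in M6stop (adjusted p = 0.957, DESeq2) in the authors' deposited table. Hsp67Ba, which encodes the longest protein of the 7 at 445 amino acids, had a mean of 11.2 normalized counts in the authors' deposited table. Its log2 fold changes in the authors' deposited table were 0.06 in F9ΔNLS (adjusted p = 0.559, DESeq2) and -0.02 in M6stop (adjusted p = 0.588, DESeq2). Among all tested genes with a mean under 20 normalized counts, 1.03% fell and 3.38% rose in F9ΔNLS, so calls were scarcer at this level than over all tested genes. Hsp67Ba also overlaps the antisense RNA CR43481, and no source used here states the strand setting of the counting.

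The gene l(2)efl, lethal (2) essential for life, encodes a small heat shock protein of 187 amino acids and lies on 2R from 23684651 to 23685543 on the minus strand (FBgn0011296). Unlike the single-exon genes Hsp23, Hsp26, Hsp27, Hsp67Ba and Hsp67Bc, it has 3 exons. It rose by 0.95 in M6stop (adjusted p = 0.0306, DESeq2), to 194% of the BG02557 level, in the authors' deposited table, where its mean was 159 normalized counts. In F9ΔNLS its log2 fold change was 0.14 (adjusted p = 0.371, DESeq2) in the authors' deposited table. In M6stop 165 called rises, this one included, were as large or larger, of 371. St3 overlaps l(2)efl on the other strand and had log2 fold changes of 0.004 in M6stop (adjusted p = 0.975, DESeq2) and -0.05 in F9ΔNLS (adjusted p = 0.732, DESeq2) in the authors' deposited table.

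**Figure D2:**
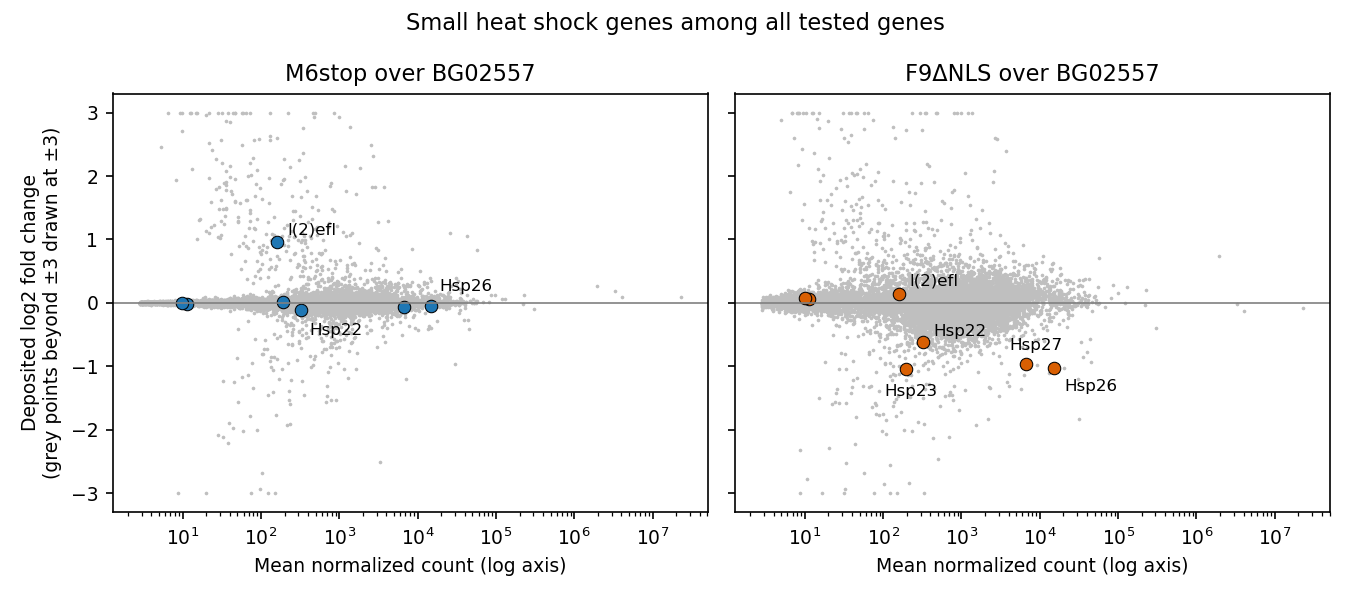
Deposited log2 fold change (vertical axis, grey points beyond 3 in either direction drawn at 3) against mean normalized count (log axis) for the 10662 tested genes in grey and the 7 small heat shock genes in colour, with M6stop on the left and F9ΔNLS on the right. Hsp26 and Hsp27 lie near -1 in F9ΔNLS at high means, and in M6stop only l(2)efl of the 7 lies away from 0.

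The mutant lines were not compared with each other by a test. The deposited log2 value of F9ΔNLS less that of M6stop was -1.05 for Hsp23, -0.98 for Hsp26, -0.91 for Hsp27 and -0.51 for Hsp22, from the authors' deposited table. For l(2)efl this difference was -0.81 in the authors' deposited table. These differences carry no error. They are taken between fold changes that appear to be shrunk, perhaps unequally in the M6stop and F9ΔNLS comparisons. Their sizes may therefore misstate the gap between the lines. A call in 1 line without a call in the other does not show that the lines differ.

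Within the 67B block the falls were those of the 4 members with the highest levels, and the other tested genes did not pass. The block runs for 14.2 kb from Hsp67Bc to Hsp27. Besides the 6 members it holds or touches 4 genes, 3 of them tested, and 0 rose or fell in either line. The shares of all tested genes were 11.6% up and 11.9% down in F9ΔNLS, and 3.48% up and 2.04% down in M6stop. A count of 0 in 3 genes is near these shares. The 3 tested genes were CG4456 with the values above, CG4461 and CR43481. CG4461, another gene with an alpha-crystallin domain, lies between Hsp22 and Hsp26. In the authors' deposited table it had a mean of 9.25 normalized counts and log2 fold changes of -0.01 in F9ΔNLS (adjusted p = 0.869, DESeq2) and -0.005 in M6stop (adjusted p = 0.884, DESeq2). The antisense RNA CR43481, at a mean of 65.8 normalized counts, had log2 fold changes of 0.25 in F9ΔNLS (adjusted p = 0.207, DESeq2) and 0.07 in M6stop (adjusted p = 0.448, DESeq2) in the authors' deposited table.

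Of 11 tested genes that reach into the 20 kb on either side of the block, 2 fell and 0 rose in F9ΔNLS, and 1 fell and 1 rose in M6stop. In F9ΔNLS the 2 falls are near the share of all tested genes, of which 11.9% fell and 11.6% rose. In M6stop 2.04% of all tested genes fell and 3.48% rose. A count of 1 gene in each direction was not tested against these shares. The window was chosen after the values were seen, and the genes named from it were too. The mitotic kinesin gene Klp67A fell by 0.34 in F9ΔNLS (adjusted p = 0.00278, DESeq2) in the authors' deposited table. CG4452 fell by 0.24 in F9ΔNLS (adjusted p = 2.72e-04, DESeq2) and by 0.22 in M6stop (adjusted p = 0.00157, DESeq2) in the authors' deposited table. UGP, a UDP-glucose pyrophosphorylase gene, rose by 0.18 in M6stop (adjusted p = 0.0246, DESeq2) in the authors' deposited table. The nearest tested gene beyond Hsp27, CG4080, had a deposited log2 change of 0.09 in F9ΔNLS (adjusted p = 0.358, DESeq2) in the authors' deposited table.

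**Figure D3:**
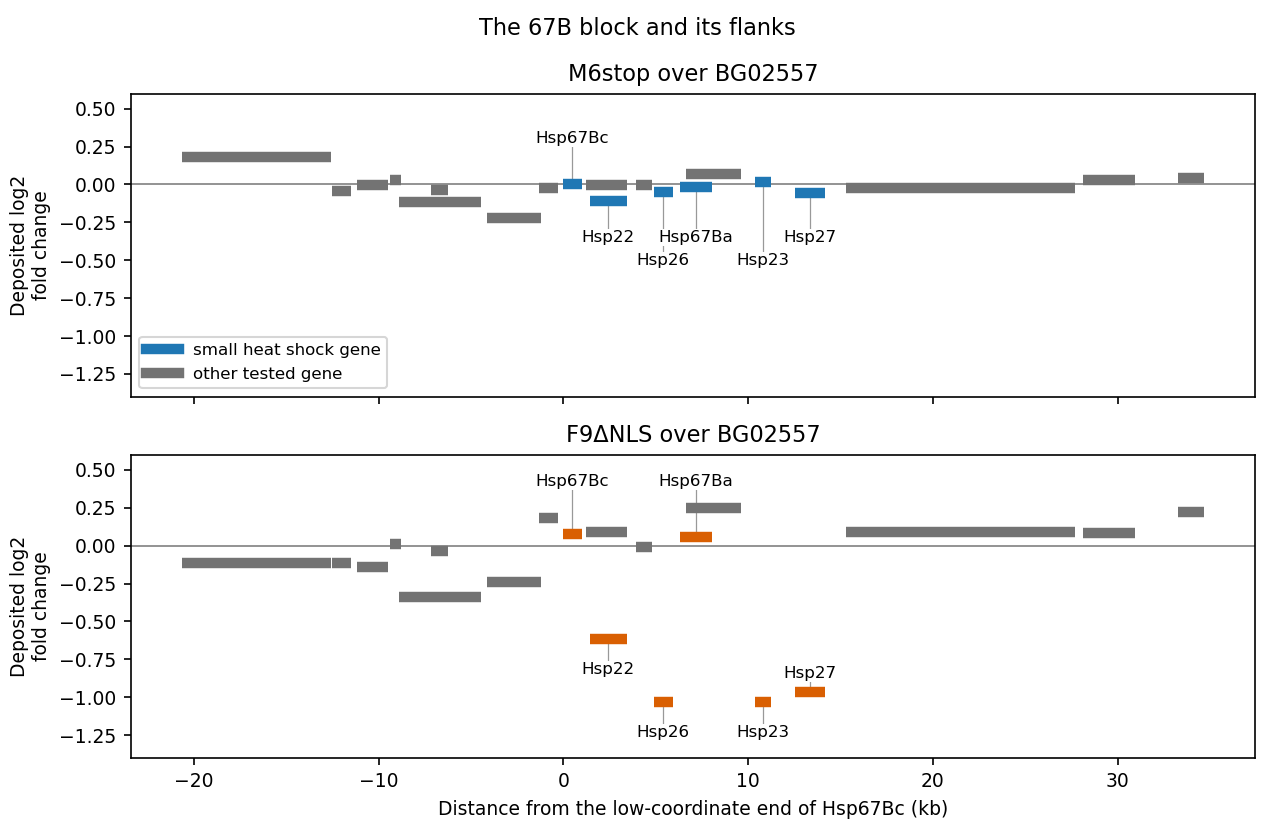
Deposited log2 fold change (vertical axis) of each tested gene in and around the 67B block, drawn as a bar over its span, with the distance from the low-coordinate end of Hsp67Bc in kb on the horizontal axis, in M6stop (upper) and F9ΔNLS (lower). In F9ΔNLS Hsp22, Hsp26, Hsp23 and Hsp27 lie between -1.03 and -0.61, and the lowest of the grey genes, Klp67A, lies at -0.34.

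Other genes with an alpha-crystallin domain outside the 7 did not pass in either line. Of 4 such genes, CG4461, CG7409, CG13133 and CG14207, 3 were tested and 0 were called. Among all tested genes 11.6% rose and 11.9% fell in F9ΔNLS, and 3.48% rose and 2.04% fell in M6stop. A count of 0 in 3 genes is near these shares. CG14207, the abundant one at a mean of 1426 normalized counts, had log2 fold changes of 0.09 in F9ΔNLS (adjusted p = 0.255, DESeq2) and 0.05 in M6stop (adjusted p = 0.675, DESeq2) in the authors' deposited table. The values of CG7409 in the authors' deposited table were 0.08 in F9ΔNLS (adjusted p = 0.369, DESeq2) and -0.01 in M6stop (adjusted p = 0.855, DESeq2). CG13133, in the authors' deposited table, averaged 0.32 normalized counts and had no adjusted p.

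Of 10 genes listed as heat shock factor and partners, 3 rose and 1 fell in F9ΔNLS, beside 11.6% and 11.9% of all tested genes, and 0 were called in M6stop by DESeq2. Among tested genes that averaged 5000 normalized counts or more, as the 3 that rose did, 22.7% rose and 10.3% fell in F9ΔNLS. The median of the list was -0.05 in F9ΔNLS and -0.01 in M6stop in the authors' deposited table. The fall was that of DnaJ-1, the heat-inducible Hsp40 co-chaperone, by 0.52 (adjusted p = 2.34e-04, DESeq2) in the authors' deposited table. Hsc70-4, the main cytosolic Hsp70 of unstressed cells, rose by 0.28 (adjusted p = 3.72e-04, DESeq2), the co-chaperone gene Stip1, which links Hsp70 to Hsp90, by 0.22 (adjusted p = 0.00258, DESeq2), and Hsc70Cb, an Hsp110, by 0.16 (adjusted p = 0.0134, DESeq2), in the authors' deposited table. Hsf, heat shock factor itself, had log2 fold changes of -0.11 in F9ΔNLS (adjusted p = 0.297, DESeq2) and -0.06 in M6stop (adjusted p = 0.710, DESeq2) in the authors' deposited table. Hsp83, the fly Hsp90, had values of 0.07 in F9ΔNLS (adjusted p = 0.414, DESeq2) and 0.02 in M6stop (adjusted p = 0.969, DESeq2) in the authors' deposited table.

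Of 15 tested constitutive chaperone genes 7 rose and 2 fell in F9ΔNLS, with 0.09 as the list's median in the authors' deposited table. Over all tested genes 11.6% rose and 11.9% fell, and among those that averaged 5000 normalized counts or more, as several of these chaperone genes did, 22.7% rose and 10.3% fell. Some entries of this list are also in the list of heat shock factor partners. The mitochondrial chaperone genes Hsp60A (0.38, adjusted p = 8.86e-09, DESeq2), Hsc70-5 (0.42, adjusted p = 3.05e-07, DESeq2) and Trap1 (0.33, adjusted p = 1.52e-06, DESeq2) rose in F9ΔNLS in the authors' deposited table. Gp93, an Hsp90 of the endoplasmic reticulum, rose by 0.25 in F9ΔNLS (adjusted p = 8.74e-05, DESeq2) and by 0.28 in M6stop (adjusted p = 2.00e-05, DESeq2) in the authors' deposited table. With DnaJ-1, the other fall in F9ΔNLS was that of Hsc70-3 (-0.16, adjusted p = 0.0133, DESeq2) in the authors' deposited table, the BiP chaperone of the endoplasmic reticulum. In M6stop 2 of the 15 rose and 0 fell, and besides Gp93 this was Hsp60A (0.19, adjusted p = 0.0131, DESeq2) in the authors' deposited table. Over all tested genes 3.48% rose and 2.04% fell in M6stop. Among those that averaged 5000 normalized counts or more, as Gp93 and Hsp60A did, 6.02% rose and 1.85% fell.

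Of the heat-inducible Hsp70 copies, only Hsp70Ab and Hsp70Bc were called in M6stop. Their means were 514 and 32.0 normalized counts over all libraries in the authors' deposited table. Of 6 tested genes of the Hsp70 and Hsp68 list, 2 rose and 0 fell in M6stop and 1 rose in F9ΔNLS. Over all tested genes 3.48% rose in M6stop and 11.6% in F9ΔNLS. The other tested genes of the list passed in neither line. In the authors' deposited table Hsp70Ab rose by 1.20 (adjusted p = 0.0164, DESeq2) and Hsp70Bc by 4.09 (adjusted p = 1.10e-04, DESeq2) in M6stop, and Hsp70Bc was called upward in F9ΔNLS with a listed value of 0.19 (adjusted p = 0.0164, DESeq2). These copies have almost the same sequence, so how reads were divided among them is uncertain.

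**Figure D4:**
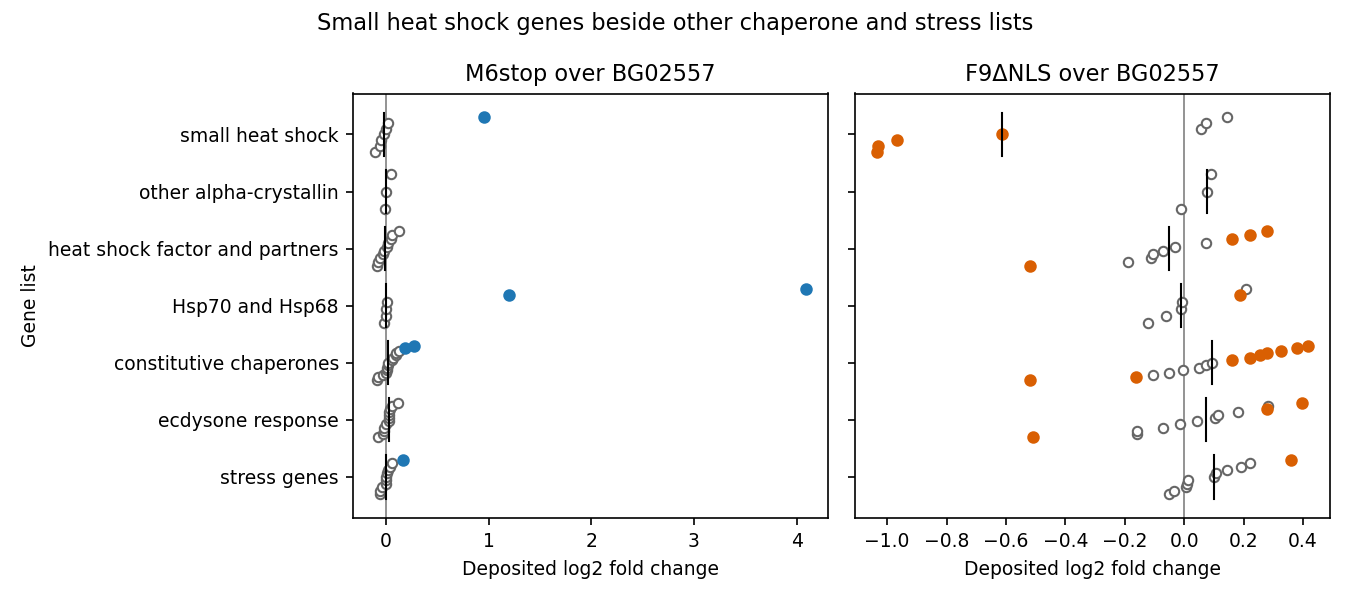
Deposited log2 fold change (horizontal axis, with its own scale in each panel) of every tested gene in 7 lists, in M6stop (left) and F9ΔNLS (right). Filled points had an adjusted p under 0.05, open points did not, and the vertical bar is the list's median: -0.61 for the small heat shock genes in F9ΔNLS, beside 0.09 for the constitutive chaperones.

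Ecdysone-response genes, are read here because the hormone can switch on the small heat shock genes. Of 12 tested genes 2 rose and 1 fell in F9ΔNLS, near the 11.6% and 11.9% of all tested genes, and by DESeq2 0 were called in M6stop. The early gene Eip74EF fell by 0.51 (adjusted p = 0.0241, DESeq2), the early gene br rose by 0.40 (adjusted p = 0.0256, DESeq2), and the receptor coactivator gene tai rose by 0.28 (adjusted p = 0.0297, DESeq2) in F9ΔNLS in the authors' deposited table. The receptor gene EcR had values of 0.04 in F9ΔNLS (adjusted p = 0.717, DESeq2) and -0.004 in M6stop (adjusted p = 0.986, DESeq2) in the authors' deposited table. Of 11 tested genes counted in the stress list 1 rose in each line and 0 fell. Over all tested genes 11.6% rose and 11.9% fell in F9ΔNLS, and 3.48% rose and 2.04% fell in M6stop. The gene that rose was foxo, a transcription factor gene of insulin and stress signalling, with rises of 0.36 in F9ΔNLS (adjusted p = 2.38e-08, DESeq2) and 0.17 in M6stop (adjusted p = 0.0286, DESeq2) in the authors' deposited table. Hsc70-3 was also planned for the stress list but is counted only with the constitutive chaperones above, where it fell in F9ΔNLS.

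Some markers of other tissues rose in the same comparisons. Over all tested genes 11.6% rose and 11.9% fell in F9ΔNLS, and 3.48% rose and 2.04% fell in M6stop. Of 15 muscle markers 10 rose in F9ΔNLS, with a list median of 0.69 there, and 5 rose in M6stop (median 0.18), in the authors' deposited table, and 0 fell in either line. Of 10 fat body markers 5 rose in F9ΔNLS (median 0.37) and 4 in M6stop (median 0.05), with 0 falls, in the authors' deposited table. The calls were apolpp, Apoltp, Obp99a and CG6910 in M6stop, and Fbp1, Fbp2, Obp99b, FASN1 and Lsd-1 in F9ΔNLS. The share of all tested genes called in both lines was not computed, so the lack of overlap shows no difference between the lines. Of 5 tested haemocyte markers 2 rose in F9ΔNLS (median 0.07) and 1 in M6stop (median -0.005), with 0 falls, in the authors' deposited table. Hml rose by 3.09 in F9ΔNLS and by 2.14 in M6stop, and Pxn by 1.61 in F9ΔNLS only, in the authors' deposited table. The other tested haemocyte markers, NimC1, crq and eater, passed in neither line. The muscle markers Act88F and TpnC41C were near 0, with means of 18.1 and 4.2 normalized counts in the authors' deposited table. Sums of these marker lists by line cannot be given without library values. Some small heat shock genes, l(2)efl among them, are also known from muscle, and the part of these markers in the rise of l(2)efl or in the falls in F9ΔNLS was not tested.

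The ovary markers were all present, with means from 474 to 42172 normalized counts in the authors' deposited table, and they did not move one way in F9ΔNLS. Of 9 genes 3 fell and 2 rose in F9ΔNLS, beside 11.9% and 11.6% of all tested genes. In M6stop 1 of the 9 rose, beside 3.48% of all tested genes. The germline gene nos (-0.60) and the vitelline membrane genes Vm26Aa (-0.85) and Vml (-1.10) fell, and the oocyte genes osk (0.36) and grk (0.40) rose, in F9ΔNLS in the authors' deposited table. The germline helicase gene vas had a deposited log2 change of 0.03 in F9ΔNLS (adjusted p = 0.707, DESeq2) in the authors' deposited table. In M6stop the rise was that of the yolk protein gene Yp1, by 1.05 in the authors' deposited table. The part of cell or stage make-up in the falls of Hsp22, Hsp23, Hsp26 and Hsp27 was not tested.

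The genes nearest to l(2)efl over the pair of deposited log2 fold changes, by Euclidean distance among tested genes that averaged 50 normalized counts or more, were Hex-C, Spat and CG14933. In the authors' deposited table Hex-C had log2 fold changes of 0.94 in M6stop (adjusted p = 0.0570, DESeq2) and 0.11 in F9ΔNLS (adjusted p = 0.424, DESeq2), at a distance of 0.03. The values of Spat in the authors' deposited table were 0.91 in M6stop (adjusted p = 0.0328, DESeq2) and 0.18 in F9ΔNLS (adjusted p = 0.285, DESeq2), and those of CG14933 were 0.999 in M6stop (adjusted p = 0.0292, DESeq2) and 0.09 in F9ΔNLS (adjusted p = 0.558, DESeq2). The likeness rests on 2 values per gene that share their control libraries.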

How the data were processed

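Total RNA from ovaries was depleted of ribosomal RNA and sequenced in paired-end libraries, per the labels' protocols. Per the submitters' processing notes, which give no roles, the tools were DESeq2 1.25.10, DESeq, R 3.6.3 and Salmon 1.3.0, with BDGP6 as the genome build. No source used here states the annotation release, the strand setting or whether fold changes were shrunk. The mean normalized count in the authors' deposited table is a signal: the average, over libraries, of counts scaled by size factors, as DESeq2 uses that column name. The authors made the log2 fold changes and p-values (adjusted), per the file headers. Base 2 was assumed, so the percentages of the BG02557 level, computed as 2 to that power, rest on it. Short line names head the comparison columns, with the P-element line read as the control.

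A further 9 columns hold values of single libraries under codes that fit no sample label. They were not used, so no library depth, spread, edgeR fit or test between the mutant lines is given. Unadjusted p-values were not used here.

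Genes were matched by symbol or RefSeq synonym, and positions, exons and protein lengths were taken from Ensembl release 115 (BDGP6.54). All 17030 positions that could be compared had the chromosome of the table. Calls and medians were computed in Python 3.11.15 with pandas 2.3.3, and the counting was tested on simulated data. The members and lists were chosen with earlier results of these data known. Named were all members, the other alpha-crystallin genes, the genes inside the 67B block, from each list at most 4 genes, those lowest in adjusted p, Pcif1 and the 3 genes nearest to the member with the largest summed absolute change. Hsf, Hsp83, Hsc70-3, EcR, St3, the tissue markers named and the genes of the flanks were chosen after their values were seen. Alternatives were other thresholds on adjusted p (0.01 and 0.1), a change of at least 0.5, a mean of 50 or more normalized counts and other sets of members. Sequences are not used here.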

Additional observations from a re-analysis of the deposited data

How the results depend on the processing

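At an adjusted p under 0.01, 3 small heat shock genes passed in F9ΔNLS, without Hsp22, and 0 in M6stop, without l(2)efl (1 gene at 0.05, by DESeq2). The counts of 4 in F9ΔNLS and 1 in M6stop were the same at an adjusted p under 0.1, with a change of at least 0.5, at a mean of 50 or more normalized counts and with the other alpha-crystallin genes added. The median log2 change in the authors' deposited table is a weak summary of 7 genes that did not move together. In F9ΔNLS (-0.61) it was -0.45 without Hsp22, -0.28 without Hsp23, Hsp26 or Hsp27, -0.79 without Hsp67Ba, Hsp67Bc or l(2)efl, -0.97 at a mean of at least 50, -0.62 relative to all tested genes and 3.6e-04 with the other alpha-crystallin genes, and the mean was -0.48. In M6stop (-0.02) it was -0.0066 without Hsp22, Hsp26 or Hsp27, -0.032 without Hsp23, Hsp67Bc or l(2)efl, -0.047 at a mean of at least 50 and -0.0048 with the other alpha-crystallin genes, and the mean was 0.11. The sets with the other alpha-crystallin genes count CG13133, which has no adjusted p, and without it, a setting chosen after seeing the data, the medians were 0.022 in F9ΔNLS and -0.0065 in M6stop. These shifts follow from which genes are counted. No paired analysis was possible because the library columns carry codes that match no label, and for the same reason leaving out a replicate and other normalizations were not run. Precision is limited for Hsp67Ba and Hsp67Bc by means of 11.2 and 9.93 normalized counts.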

Other observations

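Among the 648 tested genes that averaged 5000 normalized counts or more, a limit chosen after the values were seen, Hsp26 had the 7th lowest and Hsp27 the 10th lowest log2 fold change in F9ΔNLS. In this group 67 genes fell and 147 rose in F9ΔNLS. The 6 genes below Hsp26 in the authors' deposited table were the eggshell gene dec-1 (-1.83), the polarity gene l(2)gl (-1.35), the oocyte thioredoxin gene dhd (-1.20), His2B:CG33868 (-1.14), Vml (-1.10) and His1:CG33816 (-1.08). Of these, dhd (-0.97) and His2B:CG33868 (-0.50) also fell in M6stop in the authors' deposited table, whereas Hsp26 did not pass there. How reads were divided among the near-identical histone copies is uncertain.

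The genes nearest to Hsp26 over both deposited log2 changes, a comparison chosen after its values were seen, were CG31262 (-1.04 in F9ΔNLS and -0.08 in M6stop), CG15890 (-0.996 and -0.03) and CG31898 (-0.98 and -0.05) in the authors' deposited table.

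Most of the small heat shock genes have a single exon in every transcript, as do the histone cluster genes. With histone genes and the small heat shock genes left out, 111 of 962 tested protein-coding genes with a single exon in every transcript fell in F9ΔNLS (11.5%) and 77 rose (8.0%). Of 8847 tested protein-coding genes with more than 1 exon in some transcript, 1100 fell (12.4%) and 1097 rose (12.4%). The difference between these classes was not tested.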
